A study of Mus musculus with 33 samples.

Results

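The megakaryocyte and platelet genes described here are the 6 endogenous probes of the panel that carry the names Ppbp, Itga2b, Itgb3, Thbs1, Cd9 and F13a1. They were chosen by name, all 6 were present, and they make up 6 of the 750 endogenous probes counted. Total RNA of whole, unsorted bone marrow was counted on the NanoString nCounter, which counts barcoded probes hybridised to RNA without amplification, in 33 female wild type C57BL/6 mice aged 6 to 8 weeks. Each drug group held 3 mice and each vehicle group 2 mice, on days 1, 3 and 7 after treatment, and 3 mice were left untreated, which gave 13 groups. Venetoclax, an inhibitor of the anti-apoptotic protein BCL2 given as 100 mg/ml once daily, and ruxolitinib, an inhibitor of the kinases JAK1 and JAK2 given as 180 mg/ml 2 times a day, were dosed by oral gavage for 2 days. The design text gives these doses in mg/ml, whereas the methods of the study give them per kg of body weight. The venetoclax vehicle held phosal, polyethylene glycol and ethanol, and the ruxolitinib vehicle held DMSO, polyethylene glycol and water. The study asked how each drug, used ahead of conditioning for stem cell transplantation, altered gene expression in the marrow of the recipient.

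Megakaryocytes are the large marrow cells that shed platelets into the blood. The life span of platelets is set by survival proteins of the BCL2 family. Platelets carry chemokines and clotting proteins in their granules and a dense coat of integrin on their surface, with which they bind fibrinogen and adhere to one another.

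Of 13 megakaryocyte and platelet markers listed for a check of the label, 4 were on the panel, namely Ppbp, Itga2b, Itgb3 and von Willebrand factor (Vwf). Ppbp, Itgb3, Thbs1, F13a1 and Vwf were above background, the mean plus 2 SD of the negative probes of a lane, in 33 of 33 lanes, Cd9 in 32 and Itga2b in 31. Thbs1, Cd9 and F13a1 are also made by monocytes, macrophages and other marrow cells, and Itgb3 also by osteoclasts and other cells. The label therefore describes Ppbp and Itga2b more closely than the other members. In marrow RNA fewer cells of a type and less RNA per cell cannot be told apart. Counts were divided by a size factor of each lane, taken from 11 housekeeping probes, and are given as normalised counts; differences are log2 fold changes of an edgeR model over all 13 groups, called at an adjusted p under 0.05 over the 655 genes tested. Endogenous totals per lane ranged from 18056 to 466096 counts with a median of 158944. There were 2 shallow lanes with fewer than 30000 counts, venetoclax day 1 replicate 1 with 18056 and ruxolitinib day 3 replicate 1 with 26881. The column headers mark the 33 lanes with 3 days, 11 lanes each, and each such set is taken here as a run. Every run held all mice of a day and 1 untreated mouse, so the day and the run cannot be told apart except through the untreated mice.

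The start of transcription is shown for Ppbp and Itga2b, since the levels of these members followed each other most closely across the lanes (Pearson's r = 0.70, given in full further on). The 250 bases upstream of the start are taken from RefSeq on mouse build GRCm38.p6 and read 5′ to 3′ along the gene's own strand, chr5:90768268-90768517 on the + strand for Ppbp and chr11:102469884-102470133 on the - strand for Itga2b. Capitals mark the letters GGAAG, the core recognised by ETS factors, read on either strand (CTTCC on the strand shown), and TATAAA, the TATA box; GATAA, the core recognised by GATA factors, was also searched on both strands.
Ppbp: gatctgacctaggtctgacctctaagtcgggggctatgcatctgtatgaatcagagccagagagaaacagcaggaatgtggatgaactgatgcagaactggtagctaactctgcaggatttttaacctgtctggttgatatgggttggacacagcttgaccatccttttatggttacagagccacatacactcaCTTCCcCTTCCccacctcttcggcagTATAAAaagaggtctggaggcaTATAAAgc
Itga2b: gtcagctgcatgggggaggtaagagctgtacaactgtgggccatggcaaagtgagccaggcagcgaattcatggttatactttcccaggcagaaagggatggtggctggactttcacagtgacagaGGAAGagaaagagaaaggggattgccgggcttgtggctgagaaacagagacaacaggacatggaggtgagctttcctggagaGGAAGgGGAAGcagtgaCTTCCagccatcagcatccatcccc
In the Ppbp sequence GGAAG lay on the reverse strand at 2 places, 56 and 50 bases before the start, and TATAAA lay 30 and 8 bases before it. Itga2b had 4 matches to GGAAG, at 124, 42 and 36 bases before the start and, on the reverse strand, at 25, and no TATAAA. Neither window held GATAA, none of the marked matches overlapped, and of 32851 upstream windows of this length 64.1% held GGAAG, 12.4% TATAAA and 22.6% GATAA. Upstream windows for Cd9 and F13a1 were also found and are not printed. Thbs1 and Itgb3 were not matched.

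Ppbp, which encodes platelet basic protein, the precursor of the neutrophil-attracting chemokine CXCL7 of the platelet granule, lies at chr5:90768518-90770063. On day 1 its normalised counts were 126 and 64.5 in the mice given the venetoclax vehicle and 66.6, 56.1 and 36.1 in replicates 1, 2 and 3 given venetoclax. The ruxolitinib vehicle mice of that day had 88.8 and 60.3, and the ruxolitinib-treated mice had 169, 214 and 102. All ruxolitinib-treated mice were therefore above both of their vehicle mice, whereas the venetoclax group overlapped its vehicle group because 1 vehicle mouse, at 64.5, lay below the highest treated mouse, which was the shallow lane with 12 raw counts of Ppbp. The untreated mouse of that run, at 102.4, was above both ruxolitinib vehicle mice and all venetoclax-treated mice. It lay within the range of the ruxolitinib-treated mice, of which the lowest was at 102.3. Against vehicle, Ppbp was 1.14 ± 0.43 higher with ruxolitinib on the log2 scale (± SE, 3 mice against 2), a 2.21-fold difference with an adjusted p = 0.187 by the edgeR quasi-likelihood test and Benjamini-Hochberg adjustment. With venetoclax the log2 difference was -0.87 ± 0.48 (adjusted p = 0.543, edgeR). Without the vehicle mouse at 126 it was -0.33.

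On day 3 Ppbp counts were 71.5 and 102.6 with the venetoclax vehicle and 71.4, 56.6 and 61.9 with venetoclax. Ruxolitinib vehicle mice had 75.9 and 174, and ruxolitinib-treated mice 93.6, 85.1 and 162. The venetoclax group lay just below its vehicle group, with the nearest mice at 71.4 and 71.5, and the ruxolitinib groups overlapped. By day 7 the venetoclax vehicle mice had 24.2 and 98.3 and the venetoclax-treated mice 123, 152 and 79.9, against 119 and 94.3 with the ruxolitinib vehicle and 83.6, 102 and 229.9 with ruxolitinib. The log2 difference for venetoclax on day 7 was 1.24 ± 0.50 with an adjusted p = 0.832 (edgeR), and it rested on a vehicle pair of which 1 mouse, at 24.2, was the lowest of all 33 lanes. Without that mouse it was 0.21, and without the other vehicle mouse 2.23 (adjusted p = 0.124, edgeR). The venetoclax difference on day 7 exceeded that on day 1 by 2.11 ± 0.69 (adjusted p = 0.277, edgeR), by 1.08 without the vehicle mouse at 24.2 and by 3.10 without the other.

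Itga2b encodes the αIIb chain that pairs with Itgb3 to form the platelet receptor for fibrinogen, and it lies at chr11:102453297-102469883. Counts on day 1 were 46.4 and 42.2 with the venetoclax vehicle and 22.2, 29.3 and 29.7 with venetoclax. They were 42.1 and 34.9 with the ruxolitinib vehicle and 47.1, 54.3 and 35.6 with ruxolitinib. The 3 venetoclax-treated mice were below both vehicle mice, although the lowest of them was the shallow lane, where only 4 raw counts of Itga2b were read and the probe was not above background. The log2 difference was -0.64 ± 0.33 with venetoclax (adjusted p = 0.521) and 0.26 ± 0.27 with ruxolitinib (adjusted p = 0.717), both by edgeR. Without the shallow lane the venetoclax value was -0.59.

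The group means of Itga2b spanned a narrower range than those of any other member, from 27.1 ± 4.22 (SD, n = 3) with venetoclax on day 1 to 45.6 ± 9.45 (SD, n = 3) with ruxolitinib on day 1. On day 3 the 10 drug and vehicle mice lay between 31.8 and 56.8, and on day 7 between 21.1 and 47.7. Drug and vehicle mice overlapped for both drugs on both of these days, and the 4 log2 differences ran from -0.15 to 0.23. The untreated mice, at 28.8, 37.3 and 37.1 in the day 1, day 3 and day 7 runs, lay within the range of the vehicle mice of all days. Within the day 1 run, however, the untreated mouse was below all vehicle mice, which had 34.9 to 46.4. It lay within the range of the venetoclax-treated mice of that run, 22.2 to 29.7.

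Itgb3, the β3 chain of the same receptor and of the vitronectin receptor on osteoclasts and other cells, lies at chr11:104608000-104670476 and did not follow Itga2b closely. Its day 1 counts were 63.7 and 62.1 with the venetoclax vehicle and 94.3, 51.7 and 61.5 with venetoclax, so the treated mice lay on both sides of the vehicle pair. The one above it was the shallow lane, with 17 raw counts of Itgb3, and the other two were below both vehicle mice. With ruxolitinib they were 92.9, 97.9 and 62.4 against 73.3 and 60.9 with its vehicle, which overlapped. The log2 differences were -0.0034 ± 0.30 for venetoclax, with a 95% interval from -0.63 to 0.62, and 0.34 ± 0.27 for ruxolitinib (adjusted p = 0.997 and 0.626, edgeR).

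On day 3 all 3 venetoclax-treated mice, at 66.2, 54.6 and 69.1, were below the vehicle mice at 71.5 and 89.4. On day 7 all 3, at 52.1, 49.8 and 40.3, were above the vehicle mice at 26.6 and 28.1, while the untreated mouse of that run, at 43.8, lay within the treated range. The order of the treated and vehicle mice thus turned between these days, while the ruxolitinib groups overlapped on day 3 (77.0, 41.9 and 81.8 against 74.7 and 89.2) and lay close together on day 7 (40.2, 35.2 and 31.1 against 32.7 and 30.7). The log2 difference for venetoclax was -0.35 ± 0.27 on day 3 and 0.76 ± 0.34 on day 7 (adjusted p = 0.688 and 0.847, edgeR). Against the untreated mice of all runs, of which 2 were read in other runs at 115.2 and 69.5, the day 7 value turned to -0.71 in a fit without a term for the run. The change between days 3 and 7 was not tested.

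Thbs1 encodes thrombospondin, an adhesive glycoprotein released from platelet granules and also made by monocytes, endothelium and stroma, which binds the receptors CD36 and CD47, and it lies at chr2:118111876-118127133. Its day 1 counts were 64.7 and 77.3 with the venetoclax vehicle and 49.9, 30.5 and 17 with venetoclax, from 9, 49 and 8 raw counts. The ruxolitinib vehicle mice had 62.3 and 56.5 and the ruxolitinib-treated mice 70.9, 117 and 93.0. Every venetoclax-treated mouse was therefore below, and every ruxolitinib-treated mouse above, its own vehicle mice, and no treated mouse of one drug overlapped a treated mouse of the other. The group mean with venetoclax, 32.5 ± 16.6 (SD, n = 3), was the lowest of the 13 groups for this gene, and that with ruxolitinib, 93.7 ± 23.1 (SD, n = 3), was second only to ruxolitinib on day 7.

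Against vehicle on day 1, Thbs1 was -1.28 ± 0.39 on the log2 scale with venetoclax, 0.412 of the vehicle level (adjusted p = 0.0891, edgeR), and 0.67 ± 0.33 with ruxolitinib (adjusted p = 0.366, edgeR). Neither passed the threshold of 0.05 by itself. The difference between the drugs, venetoclax minus ruxolitinib with each set against its own vehicle, was -1.95 ± 0.51 and passed, with an adjusted p = 0.0385 (edgeR quasi-likelihood test, Benjamini-Hochberg over 655 genes). It was the only call of 1 of the 6 members in any of the 16 comparisons, and in this comparison 1.68% of the genes tested were called, 1.22% in this direction. The call was lost without any 1 of 8 of the 10 mice. The adjusted p was 0.103 and 0.138 without replicates 1 and 2 of the venetoclax vehicle, 0.207 and 0.124 without replicates 2 and 3 of venetoclax, 0.0815 and 0.209 without replicates 1 and 2 of the ruxolitinib vehicle, and 0.102 and 0.0697 without replicates 2 and 3 of ruxolitinib. Over all 10 fits with 1 mouse left out, the difference stayed between -2.12 and -1.70, and without both shallow lanes it was -2.12 (adjusted p = 0.0330, edgeR). The limma fits on log2 values gave -1.85 and, after background subtraction, -2.07 (adjusted p = 0.294 and 0.338). These fits called 0.153% and 0% of all genes.

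On day 3 Thbs1 counts were 56.6, 26.8 and 69.1 with venetoclax and 51.9 and 82.0 with its vehicle, and 66.0, 56.2 and 80.6 with ruxolitinib and 57.6 and 107.9 with its vehicle. On day 7 they were 76.4, 85.4 and 112 with venetoclax and 77.7 and 98.3 with its vehicle, and 86.5, 89.9 and 109 with ruxolitinib and 79.7 and 61.5 with its vehicle. The groups overlapped except for ruxolitinib on day 7, where all treated mice were above both vehicle mice and the log2 difference was 0.35 ± 0.34. For venetoclax the log2 difference was -0.41 ± 0.34 on day 3 and 0.14 ± 0.34 on day 7, and the mean over the 3 days was -0.52 ± 0.21 (adjusted p = 0.284, edgeR). The day 7 difference exceeded that of day 1 by 1.42 ± 0.52 (adjusted p = 0.393, edgeR).

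**Figure D1:**
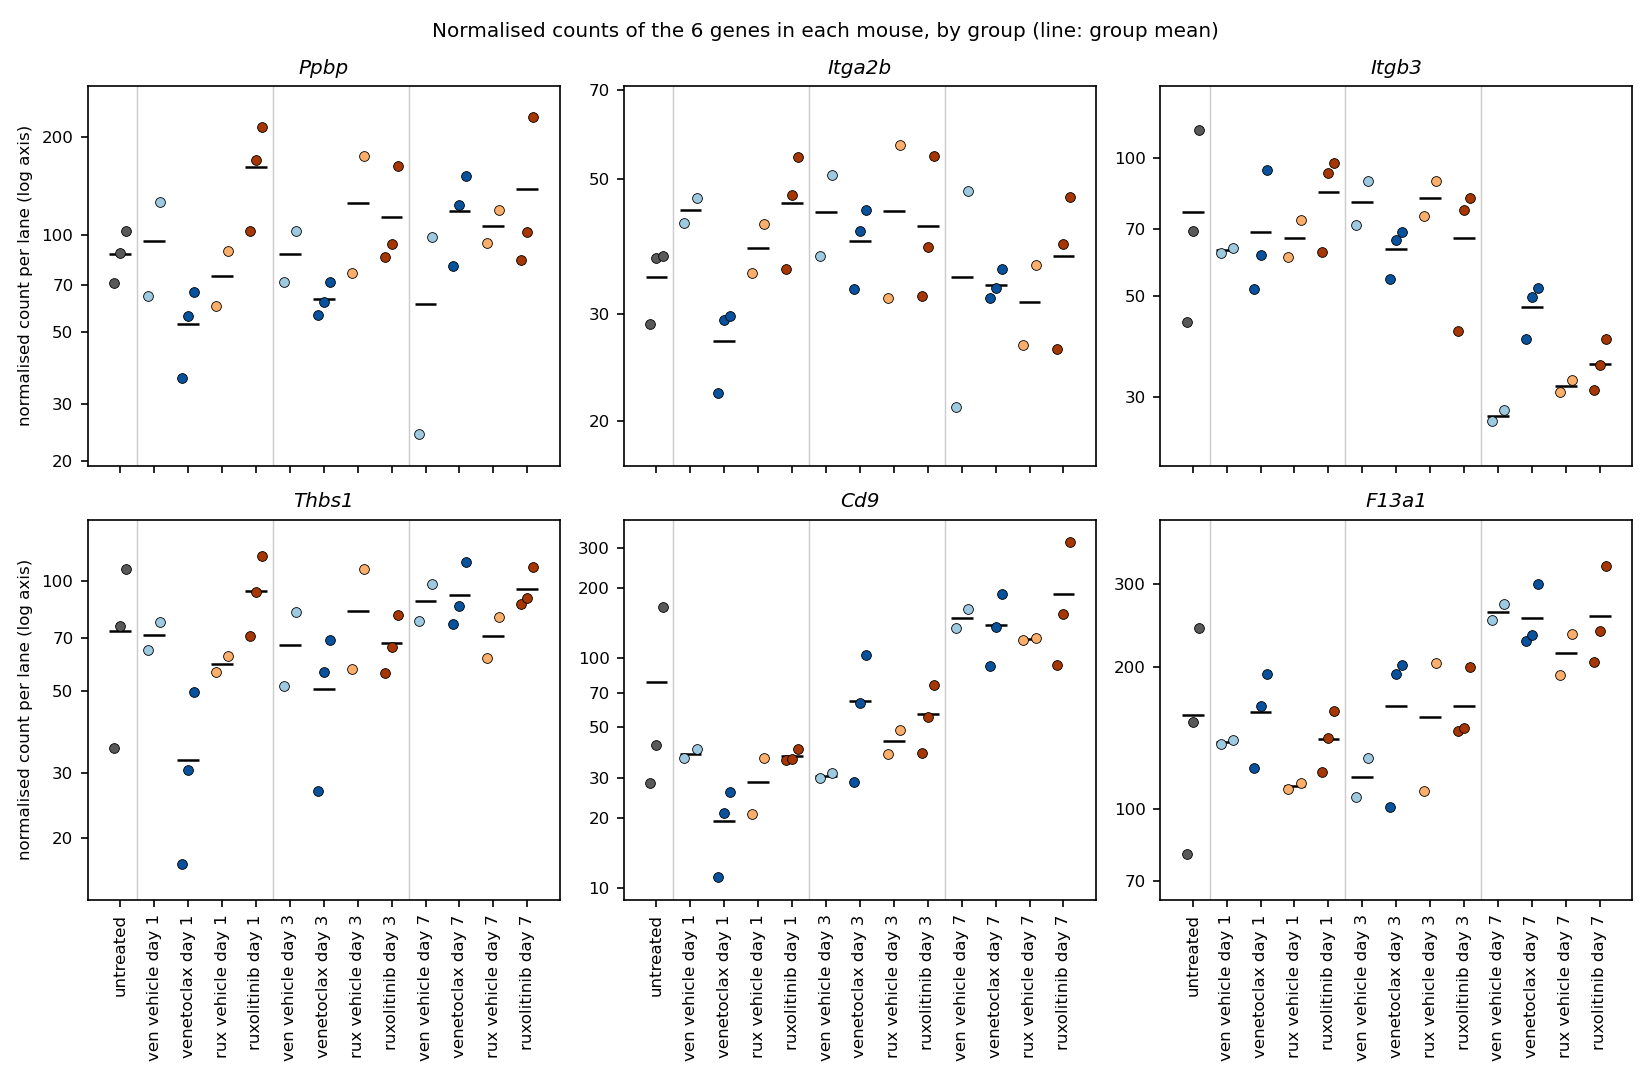
Normalised counts of the 6 genes in each of 33 mice by group, on a log axis; each point is a mouse and each line a group mean. Venetoclax on day 1 (dark blue) has the lowest mean of the 13 groups for Ppbp, Itga2b, Thbs1 and Cd9. How often it does so over all genes was not counted, and the groups come from different runs. The 3 Thbs1 values there, 49.9, 30.5 and 17, lie below both vehicle mice.

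Cd9, a tetraspanin abundant on the platelet surface and also present on B lineage cells, basophils and other myeloid cells, lies at chr6:125460266-125494760. On day 1 its counts were 39.9 and 36.6 with the venetoclax vehicle and 11.1, 26.2 and 21.2 with venetoclax. With ruxolitinib they were 35.8, 40.2 and 36.1, against 36.6 and 20.9 with its vehicle. The venetoclax-treated mice were below both vehicle mice, but the lowest value came from 2 raw counts in the shallow lane, which was not above background, and the log2 difference was -0.75 ± 0.59 (adjusted p = 0.771, edgeR). Without that lane it was -0.64. For ruxolitinib the groups overlapped and the log2 difference was 0.45 ± 0.51 (adjusted p = 0.741, edgeR), and without the vehicle mouse at 20.9 it was 0.028.

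Cd9 on day 3 was 63.6, 28.8 and 102 with venetoclax and 30.0 and 31.4 with its vehicle, a log2 difference of 1.10 ± 0.51 (adjusted p = 0.426, edgeR), which was 0.60 without the treated mouse at 102. 2 of the 3 treated mice were above the vehicle mice and 1 was below them. With ruxolitinib it was 55.0, 76.4 and 38.4 against 38 and 48.7. On day 7 the levels of all groups were higher, at 92.1, 135 and 189 with venetoclax against 163 and 135 with its vehicle, and 93.1, 154 and 317 with ruxolitinib against 122 and 119 with its vehicle. Treated and vehicle mice overlapped on that day for both drugs.

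F13a1 encodes the A subunit of coagulation factor XIII, the enzyme that crosslinks fibrin, which is made by megakaryocytes and by monocytes and macrophages, and it lies at chr13:36867178-37050244. On day 1 its counts were 122, 193 and 165 with venetoclax and 140.3 and 137 with its vehicle, which overlapped. With ruxolitinib they were 119.9, 161 and 142 against 109.9 and 113, so all 3 treated mice were above both vehicle mice. The log2 differences were 0.26 ± 0.32 for venetoclax and 0.34 ± 0.30 for ruxolitinib (adjusted p = 0.860 and 0.674, edgeR). On day 3 the counts were 193, 101 and 202 with venetoclax against 128 and 106, and 149, 201 and 146 with ruxolitinib against 109 and 204. On day 7 they were 235, 228 and 301 with venetoclax against 252 and 272, and 205, 238 and 329 with ruxolitinib against 236 and 193. Treated and vehicle mice overlapped on both days, with log2 differences between -0.022 and 0.51.

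On day 1 Ppbp, Itga2b, Thbs1 and Cd9 had log2 differences below 0 with venetoclax and above 0 with ruxolitinib, while F13a1 was above 0 with both drugs. Itgb3 was near 0 with venetoclax, below it here and above it with TMM scaling, DESeq2, both limma fits and the replicate block. With venetoclax 5 of 6 were thus below 0 and the median over the members was -0.69, beside -0.019 over the 655 genes tested, of which 48.2% were above 0. With ruxolitinib 6 of 6 were above 0 and the median was 0.39, beside 0.13 over all genes, of which 59.1% were above 0. In the difference between the drugs 6 of 6 were below 0, of which F13a1 turned above it with TMM scaling, DESeq2 and without the 2 shallow lanes, with values of -2.02 ± 0.64 for Ppbp (adjusted p = 0.103), -1.95 ± 0.51 for Thbs1, -1.19 ± 0.78 for Cd9 (adjusted p = 0.517), -0.90 ± 0.43 for Itga2b (adjusted p = 0.345), -0.34 ± 0.41 for Itgb3 (adjusted p = 0.760) and -0.073 ± 0.44 for F13a1 (adjusted p = 0.959), all by edgeR. The median was -1.05 over the members and -0.12 over all genes, of which 44.3% were above 0. The drug comparisons of a day are of different mice with different vehicles, and the difference between the drugs is built from both.

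No member passed the threshold against its own vehicle in any of the 6 drug and day comparisons in the edgeR test. On day 3 0% of all genes were called with venetoclax and 0.153% with ruxolitinib, and on day 7 0.153% with each drug. In the day 1 comparisons 0.153% of genes were called with venetoclax and 2.75% with ruxolitinib, and at an unadjusted p under 0.05, where 10.4% and 13.6% of all genes fell, they held 1 member (Thbs1) and 2 members (Ppbp and Thbs1). Over the mean of the 3 days 2.9% of genes were called with venetoclax and 1.22% with ruxolitinib, and 1.53% in the change of the ruxolitinib difference between days 1 and 7, with 0 members in each. DESeq2 and both limma fits called no member in the day 1 comparisons of either drug with its vehicle, beside 0.611% of genes with venetoclax and 2.29% with ruxolitinib by DESeq2, 0% and 0.763% by limma, and 0% and 0.611% by limma after background subtraction. Members whose treated and vehicle mice did not overlap on day 1 numbered 3 of 6 with venetoclax, all lower, beside 27.5% of all genes in either direction and 15.7% lower, and 3 of 6 with ruxolitinib, all higher, beside 44% in either direction and 27.6% higher. Without the shallow lane, with 2 mice against 2, the venetoclax count was 5 of 6 lower (all but F13a1) and 1 higher, beside 47.5% of all genes in either direction, 29.6% lower and 17.9% higher. On day 3 these were 2 of 6 lower with venetoclax (26.1% of all genes in either direction, 13.1% lower) and 0 with ruxolitinib (15.6% in either direction), and on day 7 they were 1 of 6 higher with venetoclax (17.3% in either direction, 6.56% higher) and 1 of 6 higher with ruxolitinib (17.7% and 8.09%).

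**Figure D2:**
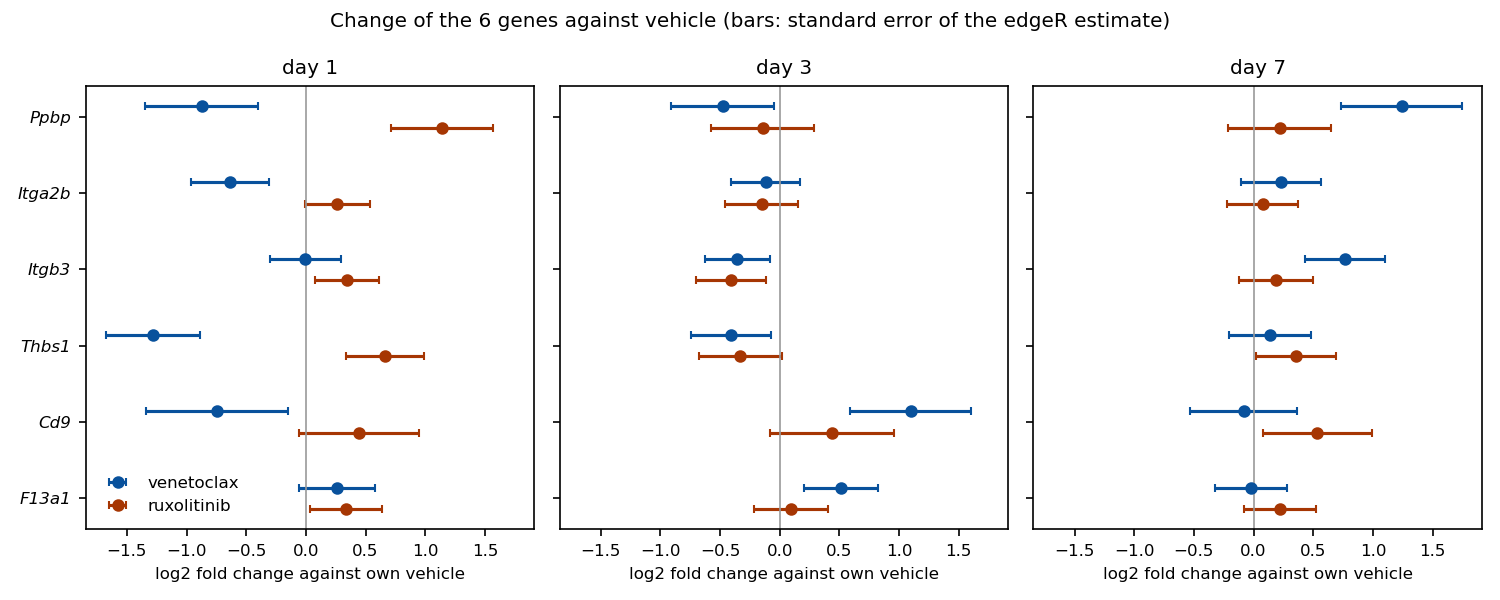
Log2 fold change of each gene against the drug's own vehicle on days 1, 3 and 7, with the standard error of the edgeR estimate as bars (3 treated against 2 vehicle mice). On day 1 the Thbs1 points stand at -1.28 for venetoclax (blue) and 0.67 for ruxolitinib (brown) and the Ppbp points at -0.87 and 1.14; on days 3 and 7 the points of both drugs lie closer together for Thbs1.

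When only the groups compared were fitted, without the shared spread of the other groups, more members and more genes passed on day 1, with 2.9% of all genes called for venetoclax and 11.8% for ruxolitinib. Thbs1 then had an adjusted p = 0.00869 with venetoclax and 0.0282 with ruxolitinib, and Ppbp 0.00363 with ruxolitinib (edgeR). The fold changes in these fits differed little from those above, at -1.29, 0.68 and 1.18.

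In an alternative outside the 16 comparisons, with untreated mice in place of vehicle mice, Thbs1 with venetoclax on day 1 was -1.32 ± 0.38 on the log2 scale and passed (adjusted p = 0.0466, edgeR), as did 3.82% of all genes, whereas with ruxolitinib it was 0.36 ± 0.31 (adjusted p = 0.731, edgeR). The untreated mice had 35.2, 75.4 and 107.9 counts of Thbs1, in the day 1, day 3 and day 7 runs. The untreated mouse of the day 1 run, at 35.2, thus lay within the venetoclax-treated range of that run, and the untreated mice of the other runs lay above it. No member passed in the comparison of the vehicle mice of all days with the untreated mice, where 0 of 655 genes were called and 75 had an unadjusted p under 0.05 (edgeR). The log2 difference was -0.48 ± 0.22 for Itgb3 (adjusted p = 0.398, edgeR) and between -0.31 and 0.11 for the other members. The 2 vehicles differed from each other by -0.10 to 0.44 over the members, and no gene of the panel was called in the comparison of vehicles in the edgeR test, where 18 had an unadjusted p under 0.05.

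Levels of Cd9, F13a1 and Itgb3 differed between the runs in vehicle, drug and untreated mice. The median of Cd9 was 135 in the 11 lanes of the day 7 run, from 92.1 to 317, and 36.6 in the 22 other lanes, from 11.1 to 102. F13a1 was also higher in the day 7 run, with a median of 238 against 141, and Itgb3 was lower, with 35.2 against 70.5. The lanes of the day 7 run and the others overlapped slightly, since 1 other lane of Cd9 and 5 of F13a1 were above the lowest day 7 lane and 2 of Itgb3 were below the highest. The untreated mice showed the same order, with Cd9 at 165 in the day 7 run and at 41.6 and 28.4 in the others, F13a1 at 243 against 80.0 and 153, and Itgb3 at 43.8 against 115.2 and 69.5. The order among the untreated mice could not be tested with 1 in each run, and the levels were not tested between runs.

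Other genes of the panel had ratios of this size too. Of 515 genes above background in at least 17 lanes, 71 (13.8%) had medians at least 2-fold apart between the day 7 run and the other runs. The 3.69-fold ratio of Cd9 was reached upwards by 3 genes including Cd9 itself, and the ratio of Itgb3 downwards by 17. No member had runs that did not overlap, beside 2.29% of the 655 genes tested. The ratio was 1.22 for Ppbp, 0.938 for Itga2b and 1.36 for Thbs1.

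The summed markers of other marrow cells also had other ranges in the day 7 run, which overlapped those of the other runs. The 13 monocyte and macrophage markers summed to between 8574 and 11817 counts in the lanes of the day 7 run and between 5518 and 11684 in the others. The 8 neutrophil markers summed to between 49659 and 75494 in the day 7 run, against 55045 to 121307 and 65494 to 113721 in the day 1 and day 3 runs. The 3 stem and progenitor markers had a median sum of 75.9 in the day 7 run (50.6 to 92.2) and of 38.4 and 39.2 in the day 1 and day 3 runs (21.9 to 57.4). For the 8 stromal markers the medians were 534 (449 to 860.4) against 319.5 and 347 (180.2 to 608.6). These sums were not tested between runs. Their part in the levels of Cd9, F13a1 and Itgb3 was not tested.

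**Figure D3:**
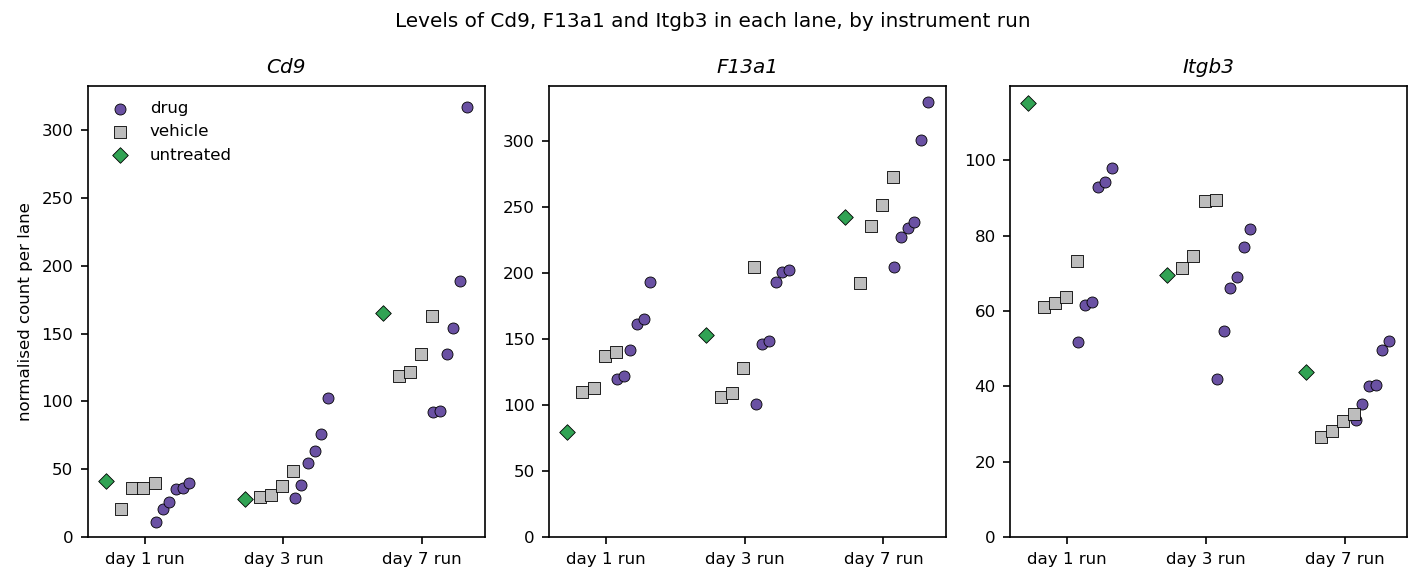
Normalised counts per lane of Cd9, F13a1 and Itgb3 in the 3 runs, with drug, vehicle and untreated mice marked by shape. In the day 7 run the untreated mouse (green diamond) stands with its run, at 165 for Cd9, 243 for F13a1 and 43.8 for Itgb3.

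The means of the 13 groups formed an order in which neighbours mostly overlapped. Ppbp ran from 52.9 ± 15.5 (SD, n = 3) with venetoclax on day 1 to 162 ± 56.4 (SD, n = 3) with ruxolitinib on day 1, and Thbs1 from 32.5 ± 16.6 to 95.0 ± 12 with ruxolitinib on day 7. Cd9 ran from 19.5 ± 7.68 with venetoclax on day 1 to 188 ± 116 with ruxolitinib on day 7. Itgb3 was highest with ruxolitinib on day 1 (84.4 ± 19.2) and lowest in the venetoclax vehicle on day 7 (27.3 ± 1.08, n = 2), and F13a1 was lowest in the ruxolitinib vehicle on day 1 (112 ± 2.42, n = 2) and highest in the venetoclax vehicle on day 7 (262 ± 14.7, n = 2). Neighbours in the order of means overlapped in 12 of 12 pairs for Ppbp, Itga2b and Thbs1, in 11 of 12 for Cd9 and F13a1 and in 9 of 12 for Itgb3. The venetoclax group of day 1 held the lowest mean for 4 of the 6 members. How often it did so over all genes was not counted, so this is no result about the members. The order also mixes the runs, and the median of Cd9 was 36.1 in the day 1 run and 135 in the day 7 run.

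Across the 33 lanes, with the mean of each run removed, Ppbp and Itga2b were each the gene most like the other of the 211 other genes with enough signal to compare (Pearson's r = 0.70 on log2 values). After Itga2b, the genes most like Ppbp were Cxcl12, the stromal chemokine that holds stem cells in the marrow (r = 0.61), and Thbs1 (r = 0.58). After Ppbp, those most like Itga2b were Thbs1 (r = 0.58) and Cd74, the invariant chain (r = 0.54). Itgb3 was most like Ppbp (r = 0.48), the surface protein Cd99 (r = 0.46) and the transcription factor Myc (r = 0.42), and its likeness to Itga2b was only 0.18. With TMM scaling Cd99 was the gene most like it (r = 0.45) and Ppbp the seventh (r = 0.39). These values describe lanes that share runs and scaling, and carry no test.

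The remaining members had nearest genes outside the group. Thbs1 was most like the integrin Itgb1 (r = 0.75), Txnip, an inhibitor of thioredoxin (r = 0.74), and Icosl, a costimulatory ligand (r = 0.72). Cd9 was most like Cybb, a subunit of the phagocyte oxidase (r = 0.79), Clec5a, a myeloid lectin (r = 0.76) and Ceacam1, an adhesion molecule (r = 0.73). F13a1 was most like fibronectin (Fn1, r = 0.78), Elane, the elastase of granulocyte precursors (r = 0.76), and Gpi1, an enzyme of glycolysis (r = 0.75). These orders shifted with the settings. With TMM scaling Icosl came first for Thbs1 and Itgb1 was the fourth, and for F13a1 Fn1 was the fourth and Elane the tenth. Without the 2 shallow lanes Cybb was the seventh for Cd9, and by Spearman's rho Thbs1 (0.59) came before Ppbp (0.58) for Itga2b. The median over the 15 pairs of members was 0.31, with 13 pairs above 0, beside 0.085 over the 22366 pairs of genes compared, of which 59.7% were above 0, and the lowest pair was Itgb3 with F13a1 (r = -0.35).

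**Figure D4:**
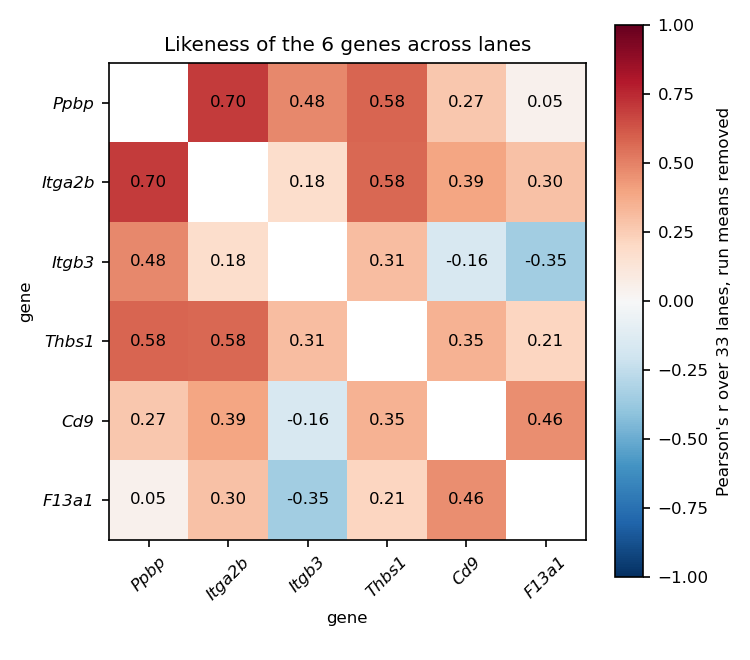
Pearson's r between each pair of the 6 genes over 33 lanes, on log2 normalised counts after the mean of each run was removed. Ppbp, Itga2b and Thbs1 form the pairs with the highest values, 0.70, 0.58 and 0.58, and F13a1 with Itgb3 the lowest, -0.35.

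Of the wider list of platelet and coagulation genes, 21 were on the panel besides the members and 20 were tested, and 0 passed in any of the 16 comparisons (edgeR), with 1 of 20 at an unadjusted p under 0.05 for venetoclax on day 1 and 2 for ruxolitinib on day 1, beside 10.4% and 13.6% of all genes. Their median log2 difference on day 1 was -0.14 with venetoclax and 0.21 with ruxolitinib, beside -0.019 and 0.13 over all genes. Vwf, the adhesive protein stored in megakaryocytes and endothelium, had day 1 differences of -0.18 ± 0.34 and -0.13 ± 0.28, so the marker that is not a member lay nearer 0 than Ppbp under both drugs. The tetraspanin Cd63 of platelet granules had 0.12 ± 0.27 and 0.066 ± 0.26, and Pecam1, shared by platelets and endothelium, -0.63 ± 0.31 and -0.062 ± 0.26. The genes at an unadjusted p under 0.05 were Cd36 with venetoclax, given further on, and with ruxolitinib Thbd, the thrombomodulin of endothelium, at 1.28 ± 0.50 and Serping1, the C1 inhibitor, at 1.04 ± 0.49 (adjusted p = 0.233 and 0.352, edgeR). The other 12 genes of the list that were above background in at least 17 lanes had values from -1.28 (Pdgfc) to 0.66 (Cd40lg) with venetoclax and from -0.61 (Ccl5) to 0.58 (Itga2) with ruxolitinib.

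Among 17 receptors, ligands and integrin partners of the members, 0 passed in any comparison (edgeR), with 3 and 2 at an unadjusted p under 0.05 on day 1 with venetoclax and ruxolitinib, beside the same 10.4% and 13.6% of all genes. Cd36, a receptor of thrombospondin on platelets, monocytes and endothelium, was -1.44 ± 0.43 on the log2 scale with venetoclax on day 1 (adjusted p = 0.0830, edgeR) and 0.045 ± 0.35 with ruxolitinib. On day 3 Cd36 was 1.26 ± 0.39 with venetoclax and 0.97 ± 0.37 with ruxolitinib, and on day 7 0.59 ± 0.35 and 0.98 ± 0.36 (adjusted p from 0.173 to 0.999, edgeR). Cd47, the other thrombospondin receptor, was -0.44 ± 0.25 and 0.068 ± 0.24. Cxcr2, the receptor of the chemokine made from Ppbp, was -0.071 ± 0.33 and 0.63 ± 0.31, and Icam4, an erythroid ligand of integrins, was -1.13 ± 0.34 and -0.73 ± 0.27 (adjusted p = 0.0830 and 0.187, edgeR). Itgb1 and Itga4, integrin chains of many marrow cells, were -0.42 ± 0.24 and -0.82 ± 0.34 with venetoclax and -0.040 ± 0.22 and -0.13 ± 0.31 with ruxolitinib. The other 9 partner genes above background in at least 17 lanes lay between -0.64 (Cd53) and 0.62 (Fn1) with venetoclax and between -0.44 (Itga5) and 0.58 (Itga2) with ruxolitinib.

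Of 22 genes of cytokine signalling and survival on the panel that bear on megakaryocyte growth, 20 were tested and 1 passed, beside 2.75% of all genes for ruxolitinib on day 1 and 1.22% over its 3 days. At an unadjusted p under 0.05 on day 1 there were 5 of 20 with venetoclax and 1 with ruxolitinib, beside 10.4% and 13.6% of all genes. The 5 with venetoclax did not pass and are not named, by the rule for named genes. With venetoclax on day 1, 8 of the 20 were above 0 and their median was -0.070, beside -0.019 over all genes. Cxcl12 was higher with ruxolitinib on day 1 by 1.93 ± 0.43 on the log2 scale (adjusted p = 0.00533, edgeR) and by 1.12 ± 0.25 over the 3 days (adjusted p = 0.0105, edgeR). It was not a member, and is given because it was the second gene most like Ppbp.

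Markers of other marrow cells on day 1 are given as the summed normalised counts, which the most abundant probes carry, and as the number of markers with a log2 difference above 0. The 8 stromal markers, of which 6 were above background in at least 17 lanes, summed to 236 to 258 with the ruxolitinib vehicle and 428 to 609 with ruxolitinib, with 8 of 8 above 0. With venetoclax they summed to 319.5 to 383 against 250.2 to 271, with 6 of 8 above 0. The endothelial sum overlapped for both drugs (87.2 to 105 against 96.4 to 143.5 with venetoclax, 97.9 to 116 against 111 to 113 with ruxolitinib), with 2 and 4 of 7 markers above 0. So did the sum of the 13 monocyte and macrophage markers, at 5518 to 8512 against 6706 to 8100 with venetoclax and 5767 to 9230 against 7169 to 7563 with ruxolitinib, with 6 and 9 above 0. The medians of these 13 markers were -0.0094 with venetoclax and 0.46 with ruxolitinib, beside -0.019 and 0.13 over all genes. The neutrophil sum was lower with ruxolitinib (77034 to 89571 against 95228 to 102086), although 6 of 8 markers were above 0 with a median of 0.39, and it overlapped with venetoclax (55045 to 121307 against 79664 to 92165). The basophil, mast cell and eosinophil sum was also lower with ruxolitinib (267 to 397 against 603 to 689), with 2 of 5 markers above 0 and a median of -0.16, and overlapped with venetoclax (211 to 683 against 444 to 583).

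The 3 stem and progenitor markers summed to 39.9 to 41.4 with ruxolitinib on day 1, above the 23.8 to 35.3 of its vehicle, with 2 of 3 above 0 and a median of 0.21. With venetoclax they summed to 29.3 to 44.4 against 37.4 to 46.4, which overlapped, with 0 of 3 above 0 and a median of -0.39, and in the difference between the drugs the median was -0.61. In that difference the medians were -0.84 for T and NK cell, -0.62 for stromal, -0.56 for endothelial and -0.45 for B lineage markers. They were -0.38 for neutrophil, -0.11 for monocyte and macrophage and 0.31 for basophil, mast cell and eosinophil markers, beside -0.12 over all genes. The B lineage sum was lower with venetoclax on day 1 (449.7 to 469 against 490 to 611), with 4 of 8 markers above 0 and a median of -0.042, and it overlapped with ruxolitinib (598 to 683 against 601 to 617). For T and NK cells 0 of 7 markers were above 0 with venetoclax on day 1, with a median of -0.33, and 2 treated mice had sums of 38 and 44.5 against 67.7 and 75.5 in the vehicle mice. The sum of 105.4 in the third treated mouse came from 19 raw counts in the shallow lane, where 0 of the 7 markers were above background. Over the 3 days Cd3d and Cd8a of this list fell with venetoclax, by 0.94 ± 0.23 and 1.90 ± 0.46 on the log2 scale (adjusted p = 0.0153 and 0.0139, edgeR), and Cd8a was above background in 16 lanes. Of the B lineage list, Igll1, part of the surrogate light chain of B cell precursors, fell with venetoclax on day 7 by 1.54 ± 0.31 and with ruxolitinib on day 3 by 1.93 ± 0.33 (adjusted p = 0.0142 and 0.00111, edgeR). Pax5, the transcription factor of B cells, fell over the 3 days of ruxolitinib by 0.83 ± 0.21 and Igll1 by 0.86 ± 0.18 (adjusted p = 0.0264 and 0.00808, edgeR). Igll1 also differed between the drugs on days 3 and 7, and the ruxolitinib difference of Ms4a1, which encodes the B cell antigen CD20, fell by 2.01 ± 0.48 from day 1 to day 7 (adjusted p = 0.0148, edgeR). The part of these cells in the day 1 values of Thbs1, Ppbp and Cd9 was not tested.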

How the data were processed

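Bone marrow RNA of 33 mice was counted on the nCounter, 1 lane per mouse. The deposited values are raw counts per probe as the authors exported them from the instrument, without the normalisation that their methods describe. Groups were taken from the labels. Background in a lane was the mean plus 2 SD of its 8 negative probes, and each lane's size factor came from 11 of 20 housekeeping probes, those above background throughout, as their geometric mean. Of 750 endogenous genes, 655 exceeded background in at least 2 lanes and entered edgeR 4.0.16 under R 4.3.3, where a single model held the means of all 13 groups (20 residual degrees of freedom), contrasts were judged by quasi-likelihood F-tests, with Benjamini-Hochberg adjustment over 655 genes and a threshold of 0.05. The common dispersion of 0.0406 corresponds to a spread of 20.2% between mice. p-values measure the spread between the mice of these cohorts within groups. The 3 untreated mice share 1 mean although each was read in another run, so run differences enter this shared spread. For Cd9 the SD of the untreated group was 96.3% of its mean, beside a median of 33.6% over the groups. With the run as a block, 1.68% of genes passed for venetoclax on day 1 and 3.51% in the difference between the drugs. Thbs1 then had adjusted p = 0.0512 and 0.0143 (edgeR).

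Comparisons were each drug against its vehicle by day and over the days, the difference between the drugs, day 7 against day 1, vehicle against untreated mice, and vehicle against vehicle. Likeness was Pearson's r on log2(normalised count + 1). Counts of 655 genes were simulated for ruxolitinib on day 1, with 200 changed. In them 67% of 2-fold and 91% of 4-fold changes were recovered, and 92.4% of 171 calls were true. The share of false calls was thus above the threshold of 0.05. In the data 18 genes passed in that comparison and 1 for venetoclax on day 1, where a lane was shallow. With fewer genes changed the adjustment is stricter, so these shares do not give the recovery in the data. Alternatives were TMM, total count and all 20 housekeeping probes as scaling, DESeq2 1.42.0, limma 3.58.1 with and without background subtraction, other filters, only the groups compared, blocks of replicate number or run, pooled vehicles, untreated controls, and each mouse or both shallow lanes left out. Replicate numbers did not pair the mice.

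Genes named are the members, the 3 genes most like each member, listed genes that passed, and listed platelet and partner genes above background in at least 17 lanes, of which some are given as a range, a choice made after their values were seen. The members and lists were chosen with earlier results of these data known. Gene positions and upstream sequences are those of RefSeq on GRCm38.p6. The header of the day 3 run reads day 2, and the labels were followed.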

Additional observations from a re-analysis of the deposited data

Results flagged for a closer look

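Thbs1 on day 1 was singled out because the effects of the 2 drugs under the same contrast, each against its own vehicle, differed in a test of the difference itself. The log2 difference, venetoclax minus ruxolitinib, was -1.95 ± 0.51 (adjusted p = 0.0385, edgeR quasi-likelihood test), with 3 of 3 venetoclax-treated mice below both vehicle mice and 3 of 3 ruxolitinib-treated mice above both of theirs. The call was lost in 8 of 10 fits with 1 mouse left out (adjusted p from 0.0697 to 0.209, edgeR). It was also lost in both limma fits (adjusted p = 0.294 and 0.338), where 0.153% and 0% of all genes were called. The untreated mouse of the day 1 run, at 35.2, lay within the range of the venetoclax-treated mice. Itgb3 with venetoclax was singled out because all 3 treated mice were below both vehicle mice on day 3 and above both on day 7, in different mice. The mean of the treated mice was 0.787 of the vehicle mean on day 3 and 1.73 times the vehicle mean on day 7, and the change between the days was not tested. On day 7 the untreated mouse of the run, at 43.8, lay within the range of the treated mice, whose mean was 47.4. Against the 3 untreated mice, of which 2 were read in other runs at 115.2 and 69.5, the log2 difference was -0.71 in a fit without a term for the run. The level of Itgb3 in the vehicle mice was 80.4 ± 12.7 (SD, n = 2) on day 3 and 27.3 ± 1.08 (SD, n = 2) on day 7. The day and the run cannot be told apart except through the untreated mice. These had 115.2, 69.5 and 43.8 counts of Itgb3 in the day 1, day 3 and day 7 runs, with 1 mouse in each.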

How the results depend on the processing

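Of 96 member values over the 16 comparisons, 22 changed sign under at least 1 of the alternatives other than untreated controls or a left-out mouse, the largest of them 0.31 in absolute log2 value; 38 did so with a mouse left out, the largest 1.02, and 16 of 48 drug values did so against untreated mice. Itgb3 with venetoclax on day 1 turned to 0.00093 with TMM scaling, 0.016 with DESeq2, 0.089 with limma, 0.038 with limma after background subtraction, 0.061 with the replicate block, and ranged from -0.18 to 0.23 with 1 mouse left out. F13a1 in the day 1 difference between the drugs turned to 0.010 with TMM scaling, 0.021 with DESeq2 and 0.045 without the 2 shallow lanes, and ranged from -0.25 to 0.046 with 1 mouse left out. Against untreated mice, Cd9 with venetoclax on day 3 was -0.035, Itgb3 with venetoclax on day 7 -0.71, Cd9 and F13a1 with ruxolitinib on day 1 -0.85 and -0.16. The number of members called on day 1 was 1 with venetoclax and 2 with ruxolitinib when only the groups compared were fitted, and 1 with venetoclax against untreated mice (Thbs1), beside 2.9%, 11.8% and 3.82% of all genes. It was 2 with ruxolitinib on day 7 against untreated mice, Itgb3 at -1.04 and Cd9 at 1.37 (adjusted p = 0.0164 and 0.0443, edgeR), beside 13.3% of all genes. Of the 3 untreated mice 2 were read in other runs, and this fit has no term for the run. In the day 7 run itself the ruxolitinib mean was 35.5 for Itgb3 and 188 for Cd9, and the 1 untreated mouse had 43.8 and 165; the Cd9 mean rested on 1 mouse at 317, and the other two, at 93.1 and 154, were below the untreated mouse. In the day 1 difference between the drugs the number of members called was 0 with both limma fits. These called 0.153% and, after background subtraction, 0% of all genes. The number was 3 when only the groups compared were fitted (Ppbp, Thbs1 and Cd9, beside 9.31% of all genes), and 0 to 1 with 1 mouse left out. The cause of these shifts was not tested.

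The replicate numbers did not pair the mice: over 177 pairs of lanes with the same number, the deviations from the group means had a median correlation of -0.016, and 27.7% were over 0.1. With the replicate block, Thbs1 in the day 1 difference between the drugs was -1.95 (adjusted p = 0.0251, edgeR), the block changed no member's call, and 5 values changed sign. Without the removal of run means the likeness of Itgb3 to Ppbp was 0.19 and that to Cd99 0.83, and with TMM scaling they were 0.39 and 0.45. Group levels moved by more than 1 SD in 10 of 78 cases with TMM scaling and 15 with total count scaling. Depth limits Itga2b, Cd9 and Thbs1, whose raw counts in the shallow venetoclax lane of day 1 were 4, 2 and 9, and Thbs1 had 8 in replicate 3 of that group.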
